A study of Homo sapiens with 9 samples.

Results

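Most of the 58 genes described here encode parts of the proteasome or protein folding chaperones, and all 58 were compared between control and doxorubicin-treated WI-38 fibroblasts. They were chosen by symbol alone, as all genes of the deposited table whose symbol begins with PSMA to PSMG and a digit, POMP, CCT, TCP1, PFDN, HSPA, HSPB, HSPD, HSPE, HSPH, HSP90, DNAJA to DNAJC, BAG, FKBP, STIP1 or AHSA1, without a hyphen. The table lists 6499 genes in all. WI-38 cells are human fetal lung fibroblasts kept as a cell line with a limited number of divisions, sampled here at population doubling 30. Control cells received DMSO. The doxorubicin cells, a model of premature senescence, received 1 μM of this topoisomerase II poison, which breaks DNA, for 12 h. Both groups then spent 48 h in medium with DMSO, and each has 3 libraries. A further group, given oridonin after doxorubicin, was not analysed here.

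The proteasome degrades proteins tagged with ubiquitin. Its 20S core is a barrel of alpha rings, which gate the entrance, around beta rings, which hold the proteolytic sites, and the 19S regulator binds, unfolds and feeds in the substrate. Chaperones of the HSP70, HSP90 and HSP60 families fold proteins in cycles of ATP hydrolysis, J-domain proteins (DNAJ) start the HSP70 cycle, small heat shock proteins hold unfolded proteins without ATP, and FKBP immunophilins include prolyl isomerases. In the endoplasmic reticulum (ER), BiP (HSPA5), GRP94 (HSP90B1) and their J-domain partners fold secreted proteins, of which fibroblasts make large amounts as collagen and other matrix.

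The table has values for each library in TPM, a level corrected for transcript length and for the total of the library, a unit inferred because the table names none. It is taken to hold genes that passed the thresholds of the study on these same 6 libraries. Doxorubicin and control were therefore compared again as a description of size and spread, and the fit is no independent test. Of 168 annotated protein-coding genes that match the symbols, 58 are listed. All 9 genes of the CCT chaperonin, the catalytic subunits PSMB5 and PSMB9, and HSPA1A, HSPA1B, HSPA8, HSPA9, HSPE1 and HSP90AB1 are outside the list and were not analysed here.

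Across the libraries, the listed genes hold 54.3 to 54.8% of the TPM total in control and at least 58.6% after doxorubicin. CDKN1A, the p53 target that encodes p21, lay between 683 and 709 TPM in control and between 1399 and 1502 TPM after doxorubicin. Of 16 fibroblast markers 9 are listed, with a sum of 11877 to 12251 TPM in control and 10247 to 12487 TPM after doxorubicin, where 8 of the 9 were called lower and fibronectin (FN1) higher. Of 9 epithelial markers the 3 keratins KRT8, KRT18 and KRT19 are listed, at 135 to 150.5 and 283 to 307 TPM in sum. TEK, the 1 of 6 endothelial markers that is listed, lay at 8.45 to 9.83 and 2.29 to 3.27 TPM, and of 8 leukocyte markers CD68 and PTPRC are listed. PTPRC, the defining marker of leukocytes, was under 1 TPM in all libraries, and the lysosomal protein gene CD68 lay at 44.9 to 49.0 TPM in control and 87.3 to 93.4 TPM after doxorubicin. The part of these shifts in the results below was not tested. In bulk RNA, fewer cells of a type and less RNA per cell cannot be told apart, and the labels do not say whether the 3 libraries of a group are separate cultures, so the spread may be technical.

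Some promoters of these genes hold the binding letters of stress factors, and those of genes whose results are given below are shown. Windows from 250 bases before to 50 bases after each start were taken from RefSeq on GRCh38.p14. Of the 58 genes, 50 were found there, with 74 windows. A gene is counted as holding the letters if any of its windows does. Shares of windows and counts of genes below are therefore unlike measures, and a gene with several windows has more chances to match. The ER stress element, read here as CCAAT, 9 bases and CCACG on either strand, was added after the data were seen. It is in 27 of 35116 promoter windows (0.08%), and among the 50 genes it is in HSPA5 and HSP90B1, both of which fell, and it is shown for that reason. It contains the CCAAT box by construction. In the following lines capitals mark the whole element. HSPA5 is on the minus strand at chr9:125241361-125241439, where the element begins 66 bases before the start. HSP90B1 is on the plus strand, with 1 element at chr12:103930211-103930239, 194 bases before the start, and another at chr12:103930316-103930344, 89 bases before the start and read on the opposite strand.
HSPA5: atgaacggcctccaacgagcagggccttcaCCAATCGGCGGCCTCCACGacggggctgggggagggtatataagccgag
HSP90B1, far element: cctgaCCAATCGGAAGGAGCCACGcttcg
HSP90B1, near element: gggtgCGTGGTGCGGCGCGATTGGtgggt

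The core of the heat shock element, GAANNTTC, reads the same on both strands and is in 6.77% of all 35116 windows. It is in 9 of the 50 genes, which are HSPB1, HSPB6, HSPB8, HSPA6, HSP90AA1, HSPD1, DNAJB1, PFDN6 and PSMC3IP, and in 0 of the 15 proteasome genes with a window. All 3 small heat shock proteins taken in by the symbol rule hold it, and they are shown because HSPB1 and HSPB8 rose and HSPB6 fell. Capitals mark the core. The stretches are at chr7:76302461-76302528 on the plus strand for HSPB1, chr12:119178838-119178855 on the plus strand for HSPB8, and chr19:35757188-35757255 on the minus strand for HSPB6, with the core 182, 88 and 196 bases before the start. HSPB8 has another core just after its start.
HSPB1: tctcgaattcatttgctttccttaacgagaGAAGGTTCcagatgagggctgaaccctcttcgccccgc
HSPB8: cctccGAATATTCctgtg
HSPB6: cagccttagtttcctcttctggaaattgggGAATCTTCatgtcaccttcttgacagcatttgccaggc

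The antioxidant response element TGACNNNGC, the letters bound by NFE2L2, is in 13.35% of all windows on either strand and in 13 of the 50 genes. Of these, 5 are proteasome genes (PSMB3, PSMC4, PSMC5, PSME2 and PSME4), out of 15 with a window. CCAAT is in 34.61% of all windows and in 22 of the 50 genes, and TATAAA in 11.53% and in 6 genes. A match is a description of letters and not a bound site, and no match says only that the letters are not in this window.

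Of the 58 genes, 56 had a mean of at least 1 TPM and were tested, and 11 were called higher after doxorubicin and 18 lower, at a fold change over 1.2 and a limma adjusted p under 0.05 over all 5721 genes tested. These are 19.6% and 32.1% of the 56, and 22.7% and 48.5% of all genes tested were called higher and lower. The median log2 fold change, doxorubicin minus control on the log2(TPM + 1) scale, was 0.09 for the 56 genes and -0.28 for all genes. The 3 doxorubicin values lay above all 3 control values for 24 of the 56 genes and below them for 17, while 32.3% and 48.4% of all genes lay so. The remaining 15 genes overlapped between the groups. The other 27 genes tested were called in neither direction.

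**Figure D1:**
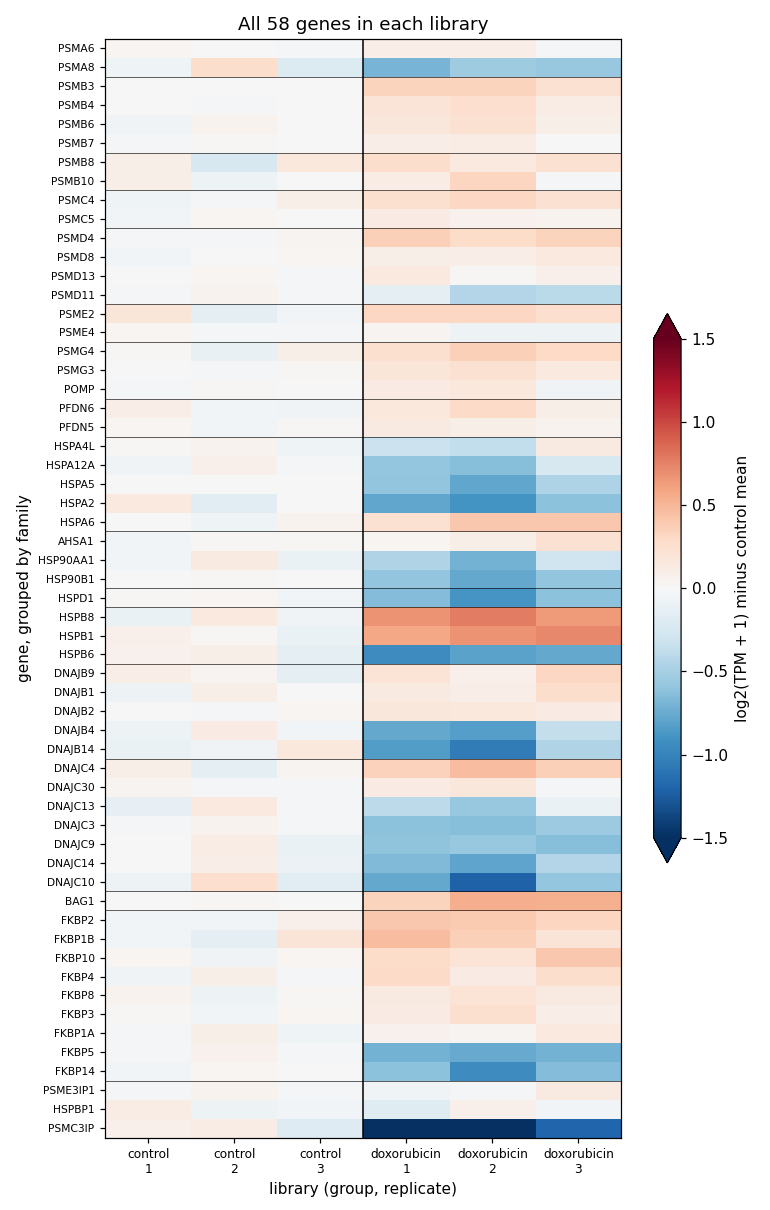
Level of all 58 genes in each library, as log2(TPM + 1) minus the mean of the 3 control libraries, in colour from blue (lower) to red (higher), with genes as rows grouped by family and the 3 control and 3 doxorubicin libraries as columns. Most proteasome rows are pale red after doxorubicin, and HSPA5, HSP90B1 and HSPD1 are blue in all 3 doxorubicin libraries.

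How the libraries are scaled decides many of these calls. Quantile normalization and median scaling, which align the libraries on the listed genes, moved the median of all genes from -0.28 to -0.01 and -0.02. With quantile normalization 11 of the 56 genes were called higher and 16 lower, while 33.0% and 28.7% of all genes were called higher and lower. With median scaling 35 (62.5%) were called higher and 14 (25.0%) lower, while 45.2% and 30.3% of all genes were. On all 3 scalings 7 genes were called higher (BAG1, DNAJC4, FKBP1B, FKBP2, HSPB1, HSPB8 and PSMG4) and 14 lower (DNAJB4, DNAJB14, DNAJC3, DNAJC9, DNAJC10, DNAJC14, FKBP5, FKBP14, HSP90B1, HSPA2, HSPA5, HSPB6, HSPD1 and PSMC3IP). For 8 genes (FKBP1A, HSPA4L, HSPBP1, PFDN5, PSMA6, PSMB4, PSMB7 and PSME4) the sign itself differed between scalings. In 27 of the 58 listed genes the ratio of mean TPM was within 1.2-fold either way. If the study listed genes at a fold change over 1.2, its fold changes were not ratios of these values, which was not tested.

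**Figure D2:**
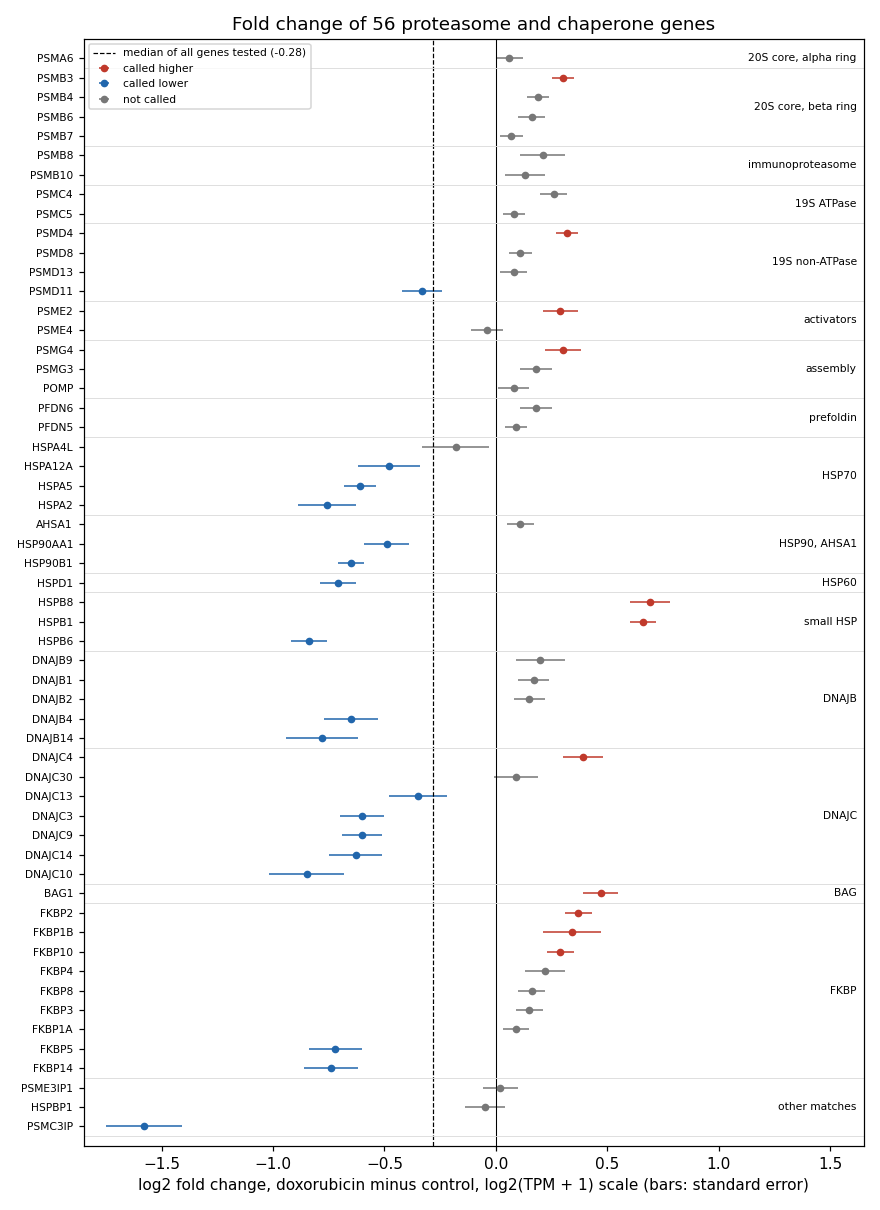
Log2 fold change (doxorubicin minus control, log2(TPM + 1) scale, horizontal axis) of the 56 genes tested, by family, with bars for the standard error, red for called higher, blue for called lower and grey for not called. The proteasome rows at the top lie close together between -0.33 and 0.32, and the chaperone rows below spread from -0.85 to 0.69, with PSMC3IP at -1.58 in the last row.

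Most proteasome genes had slightly higher TPM values after doxorubicin, and few passed the test. Of 18 tested, 16 had a higher value and 2 a lower one on the TPM scale, and with quantile normalization 14 had a higher value and 4 a lower one. The test called 4 higher (PSMB3, PSMD4, PSME2 and PSMG4) and 1 lower (PSMD11). The 4 are 22.2% of the 18 genes, beside 22.7% of all genes called higher, and the 1 is 5.6%, beside 48.5% called lower. The groups did not overlap for 10 higher genes and 1 lower gene, while 32.3% and 48.4% of all genes lay so. The median log2 fold change of the 18 genes was 0.15, against -0.28 for all genes. The median was 0.05 after quantile normalization, with PSMG3 and PSMG4 called higher (11.1%, beside 33.0% of all genes). It was 0.41 after median scaling, with 16 (88.9%) called higher and 0 lower, beside 45.2% and 30.3% of all genes. Summed over the 19 listed proteasome genes, control libraries held 3222, 3189 and 3220.0 TPM, and doxorubicin libraries held 3662, 3673 and 3483 TPM. All 3 doxorubicin sums lay above the control sums, and the ratio of the means was 1.12.

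In the 20S core, PSMB3, a structural beta subunit, rose from 302, 301 and 301 TPM in control to 381, 379 and 353 TPM after doxorubicin. The groups were far apart, with a log2 fold change of 0.30 ± 0.05 (SE, n = 3 per group, limma adjusted p = 0.000727), and the value was 0.20 after quantile normalization, under the fold change needed for a call. PSMB4, another structural beta subunit and the most abundant proteasome gene listed, had 469, 461 and 468 TPM in control and 534, 557 and 506 TPM after doxorubicin. These groups do not overlap either, but the log2 fold change of 0.19 ± 0.05 was under the fold change for a call and was -0.01 after quantile normalization. After median scaling PSMB4 was at 0.45 and called higher.

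PSMB6 and PSMB7 encode the constitutive caspase-like and trypsin-like subunits. PSMB6 had 273, 294 and 281 TPM in control and 319.6, 331 and 299.9 TPM after doxorubicin, and its log2 fold change was 0.16 ± 0.06. PSMB7 had 297, 306 and 302 TPM in control and 322, 325 and 304 TPM after doxorubicin, and its log2 fold change of 0.07 ± 0.05 turned to -0.03 after quantile normalization. Only PSMB6 of this pair had groups that did not overlap. Both were called higher only after median scaling, PSMB6 at 0.42 and PSMB7 at 0.33. PSMA6, the alpha subunit tested, had 218 to 228 TPM in control and 221 to 240 TPM after doxorubicin. PSMA8, the alpha subunit of the testis, was under the filter, at 0.83 to 1.52 TPM in control and 0.30 to 0.45 TPM after doxorubicin.

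PSMB8 and PSMB10 encode subunits that replace the constitutive ones in the immunoproteasome, which interferon induces. PSMB8 had 45.4, 36.2 and 47.8 TPM in control and 51.6, 47.6 and 50.2 TPM after doxorubicin. PSMB10 had 49.6 to 55.7 TPM in control and 51.5 to 65.7 TPM after doxorubicin. The groups overlapped for both genes, and neither log2 fold change, 0.21 ± 0.10 for PSMB8 and 0.13 ± 0.09 for PSMB10, passed the test (limma adjusted p = 0.0775 and 0.205). After median scaling both were called higher, at 0.47 and 0.39. The ratio of PSMB8 to PSMB7 within a library cannot be changed by a scaling by 1 factor per library. It was 0.118 to 0.158 in control and 0.146 to 0.165 after doxorubicin, and also overlapped. PSMB8 takes the place of PSMB5, which is not listed, and not of PSMB7, so this ratio does not measure that exchange.

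In the 19S regulator, 3 of the 4 non-ATPase genes listed had higher values and 1 had lower values. PSMD4, the ubiquitin receptor also known as Rpn10, rose from 226, 224 and 235 TPM in control to 293, 277 and 288 TPM after doxorubicin. The groups do not overlap, and the log2 fold change was 0.32 ± 0.05 (limma adjusted p = 0.000473), with 0.26 and no call after quantile normalization. PSMD11, the scaffold subunit Rpn6, fell from 46.0, 48.2 and 45.7 TPM in control to 42.0, 34.2 and 34.9 TPM after doxorubicin. It is the only proteasome gene called lower on the TPM scale, at -0.33 ± 0.09 (limma adjusted p = 0.00737). It was also called lower after quantile normalization, and after median scaling it was at -0.07 and not called.

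The level of PSMD11 relative to PSMB3 was read within each library, where a scaling by 1 factor per library, unlike quantile normalization, leaves it as it is. The ratio of PSMB3 to PSMD11 in TPM was 6.57, 6.24 and 6.59 in the control libraries and 9.09, 11.1 and 10.1 in the doxorubicin libraries. PSMB3 thus gained on PSMD11 by 1.56-fold, without overlap. This pair and the other ratios below were chosen after the values were seen. Of the other 19S genes, the ATPase PSMC4 had 91.8 to 102 TPM in control and 113 to 119 TPM after doxorubicin, a log2 fold change of 0.26 that was just under the fold change for a call. PSMC5, PSMD8 and PSMD13 had log2 fold changes of 0.08, 0.11 and 0.08 and were not called on the TPM scale. After median scaling PSMC4, PSMC5, PSMD8 and PSMD13 were called higher.

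Among activators, PSME2, a subunit of the interferon-induced 11S cap, rose from 301, 241 and 258 TPM in control to 328, 329.8 and 316 TPM after doxorubicin. The doxorubicin values were close to each other and the first control library was near them, and the log2 fold change was 0.29 ± 0.08 (limma adjusted p = 0.00681). Without control replicate 2 it was 0.22 and under the fold change for a call. PSME4, which encodes the activator PA200, had 44.4 to 45.9 TPM in control and 42.5 to 46.3 TPM after doxorubicin, and its log2 fold change of -0.04 was 0.22 after median scaling. The assembly chaperone PSMG4 rose from 41.5, 37.9 and 43.5 TPM to 48.5, 52.6 and 50.5 TPM, a log2 fold change of 0.30 ± 0.08, called on all 3 scalings but at 0.24 without control replicate 2. Its assembly partner PSMG3 had 31.3 to 31.9 TPM in control and 35.0 to 37.3 TPM after doxorubicin, and POMP, the core maturation factor, overlapped between the groups.

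Prefoldin delivers unfolded actin and tubulin to the CCT chaperonin. Of its subunits PFDN5 and PFDN6 are listed, and neither was called on the TPM scale or after quantile normalization. Both were called higher after median scaling, at 0.35 and 0.43. PFDN5 was among the most abundant genes here, at 961, 910.45 and 947 TPM in control and 1034, 997 and 977 TPM after doxorubicin, and its log2 fold change of 0.09 was -0.03 after quantile normalization. PFDN6 had 91.9 to 102 TPM in control and 102 to 117 TPM after doxorubicin, and its groups overlap.

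Most genes of the HSP70, HSP90 and HSP60 group, which counts the HSP90 activator AHSA1 with the ATP-driven chaperones, were lower after doxorubicin. Of 8 tested, 7 had lower values and AHSA1 a higher one on the TPM scale. On that scale 6 were called lower, with 5 called lower after quantile normalization and 4 after median scaling. The 6 are 75.0%, beside 48.5% of all genes called lower. Their median log2 fold change was -0.55, -0.53 after quantile normalization and -0.29 after median scaling. Summed over the 9 listed genes, AHSA1 included, control libraries held 1837, 1921 and 1818 TPM, and doxorubicin libraries held 1319, 1170.2 and 1419 TPM. The doxorubicin sums were all below the control sums, at 0.701 of the control mean.

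HSPA5, the HSP70 of the ER known as BiP, fell from 454, 455 and 454 TPM in control to 302, 265 and 328 TPM after doxorubicin. The control libraries were nearly identical and all 3 doxorubicin libraries were well below them, with a log2 fold change of -0.61 ± 0.07 (SE, n = 3 per group, limma adjusted p = 6.5e-05). HSP90B1, the HSP90 of the ER known as GRP94, fell from 527, 535 and 527 TPM to 351, 309.9 and 351 TPM. Its log2 fold change was -0.65 ± 0.06 (limma adjusted p = 1.12e-05). Both genes were called lower on all 3 scalings, at -0.35 and -0.39 after median scaling.

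HSP90AA1, the stress-inducible cytosolic HSP90, fell from 508, 577 and 491 TPM in control to 381, 320.3 and 424 TPM after doxorubicin. The lowest control value was above the highest doxorubicin value, and the log2 fold change of -0.49 ± 0.10 (limma adjusted p = 0.0019) was -0.23 and not called after median scaling. AHSA1, which activates the ATPase of HSP90, had 160.2, 166 and 166 TPM in control and 168, 174 and 193 TPM after doxorubicin. It was called higher only after median scaling, at 0.37. AHSA1 relative to HSP90AA1 was 1.53-fold higher after doxorubicin, at 0.289 to 0.339 in control and 0.440 to 0.544 after doxorubicin.

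HSPD1, the HSP60 chaperonin of mitochondria, fell from 171, 172 and 164 TPM in control to 107, 91.3 and 110.3 TPM after doxorubicin. The groups were well apart, with a log2 fold change of -0.71 ± 0.08 (limma adjusted p = 3.2e-05). The genome has 17 pseudogenes named after HSPD1, and how reads shared with them were counted is not given in the sources used here. Its partner HSPE1, which overlaps it on the opposite strand, was not analysed here.

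Of the less abundant HSP70 genes, 2 were called lower on the TPM scale. HSPA2, the HSP70 best known from germ cells, fell from 7.89, 6.21 and 7.05 TPM in control to 3.66, 3.32 and 4.24 TPM after doxorubicin, a log2 fold change of -0.76 ± 0.13 (limma adjusted p = 0.00062). HSPA12A, a distant HSP70 relative, had 4.96 to 5.48 TPM in control and 2.97 to 4.23 TPM after doxorubicin, a call on the TPM scale that was lost on the other 2 scalings. HSPA4L, of the HSP110 group, had 2.87 to 3.21 TPM in control and 2.14 to 3.46 TPM after doxorubicin, and its value of -0.18 turned to 0.16 and 0.07 on the other 2 scalings. HSPA6, which heat strongly induces, was under the filter but had higher values after doxorubicin, at 0.22 to 0.32 TPM in control and 0.49 to 0.68 TPM.

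**Figure D3:**
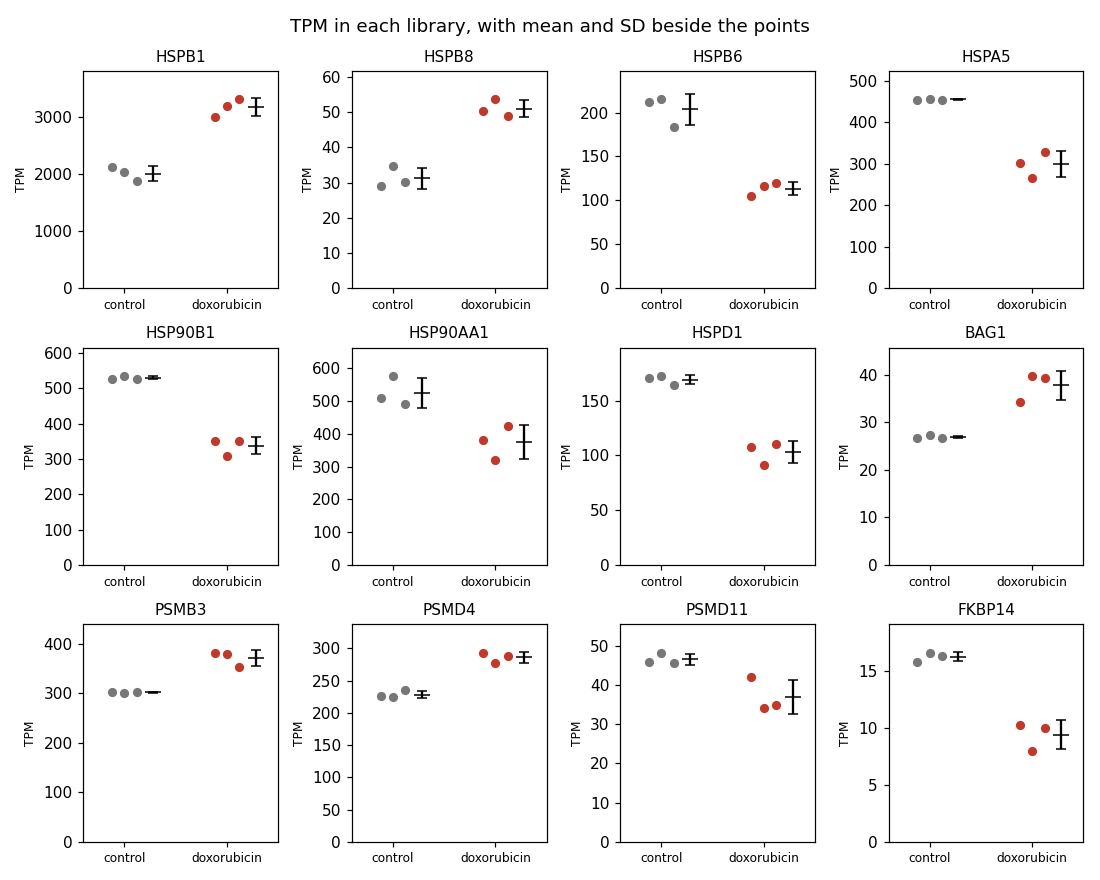
TPM of 12 genes in each library (grey, control; red, doxorubicin; points, libraries; bars, mean ± SD, n = 3 per group; each vertical axis starts at 0). HSPB1, HSPB8, BAG1, PSMB3 and PSMD4 are higher after doxorubicin and HSPB6, HSPA5, HSP90B1, HSP90AA1, HSPD1, PSMD11 and FKBP14 lower, with no overlap between the groups.

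The 3 small heat shock proteins with an HSPB symbol did not move together, and the direction of each was the same on all 3 scalings. CRYAB, a small heat shock protein outside the symbol rule, was named after its values were seen. It was at 0.32 on the TPM scale and called higher on all 3 scalings. HSPB1, or HSP27, the most abundant gene of the 58, rose from 2122, 2028 and 1876 TPM in control to 3003, 3199 and 3312 TPM after doxorubicin. The groups were far apart, and the log2 fold change was 0.66 ± 0.06 (SE, n = 3 per group, limma adjusted p = 8.18e-06). HSPB8, which works with BAG3 in selective autophagy, rose from 29.1, 34.6 and 30.02 TPM to 50.3, 53.7 and 49.0 TPM, a log2 fold change of 0.69 ± 0.09 (limma adjusted p = 8.8e-05). HSPB6, or HSP20, a small heat shock protein of muscle, fell from 212, 215 and 184 TPM to 105, 116 and 119 TPM. Its log2 fold change was -0.84 ± 0.08 (limma adjusted p = 1.15e-05).

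Within each library, the ratio of HSPB1 to HSPB6 was 10.0, 9.42 and 10.2 in control and 28.6, 27.6 and 27.8 after doxorubicin. The ratio was thus 2.83-fold higher after doxorubicin with little spread in either group. HSPB1, HSPB8 and HSPB6 all hold the heat shock element core printed above, and its part in these values was not tested. HSPB8 gained on HSPB6 by 2.93-fold in the same libraries.

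Of 12 J-domain genes tested, 7 were called lower and 1 higher on the TPM scale. The 7 are 58.3%, beside 48.5% of all genes called lower. After quantile normalization 6 were called lower and 3 higher, and after median scaling 6 lower and 5 higher. Their median log2 fold change was -0.48, with -0.21 and -0.22 on the other 2 scalings. DNAJB1, or HSP40, the heat-induced partner of cytosolic HSP70, had 76.7, 86.4 and 80.8 TPM in control and 89.3, 87.0 and 98.0 TPM after doxorubicin. Its values lay just above those of control without a call on the TPM scale, at 0.17 ± 0.07. DNAJB2, a neuronal J-domain protein that binds ubiquitin, had a similar log2 fold change of 0.15 and was not called on that scale. After median scaling DNAJB1 was called higher at 0.43 and DNAJB2 at 0.41.

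Of the other DNAJB genes, DNAJB4 and DNAJB14 fell, and DNAJB9 is given with the ER genes below. DNAJB4, a cytosolic relative of DNAJB1, fell from 42.9, 49.2 and 43.8 TPM in control to 26.1, 25.1 and 35.0 TPM after doxorubicin, a log2 fold change of -0.65 ± 0.12 (limma adjusted p = 0.00103). DNAJB14, anchored in the ER membrane, fell from 8.74, 9.04 and 10.65 TPM to 4.86, 4.04 and 6.62 TPM. Its log2 fold change was -0.78 ± 0.16 (limma adjusted p = 0.00161), and both genes were called lower on all 3 scalings.

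Of the DNAJC genes, 5 of 7 (71.4%) were called lower on the TPM scale and 4 (57.1%) after quantile normalization. Of all genes, 48.5% and 28.7% were called lower on these scales. DNAJC10, or ERdj5, a disulfide reductase of the ER, fell from 9.61, 12.3 and 8.99 TPM in control to 5.58, 3.85 and 6.48 TPM after doxorubicin. Its log2 fold change of -0.85 ± 0.17 (limma adjusted p = 0.00172) was the lowest among the J-domain genes. DNAJC3, the ER co-chaperone P58IPK, had 11.3 to 12.0 TPM in control and 7.06 to 7.63 TPM after doxorubicin, a log2 fold change of -0.60 ± 0.10. DNAJC9, a histone co-chaperone linked to proliferating cells, had 23.5 to 27.3 TPM and then 15.9 to 16.8 TPM, also a log2 fold change of -0.60. DNAJC14, of the ER membrane, was at -0.63, and DNAJC13, an endosomal protein, at -0.35 with overlapping groups and no call on the other 2 scalings.

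DNAJC4 was the J-domain gene called higher. It rose from 27.4, 23.3 and 26.4 TPM in control to 32.8, 35.7 and 33.3 TPM after doxorubicin, a log2 fold change of 0.39 ± 0.09 (limma adjusted p = 0.00299), called on all 3 scalings. It overlaps NUDT22 on the same strand, and reads of the shared part cannot be told apart. DNAJC30, of mitochondria, had 12.3 to 12.9 TPM in control and 12.4 to 14.3 TPM after doxorubicin and was not called on the TPM scale.

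BAG1, a nucleotide exchange factor that releases the substrate of HSP70 and can dock to the proteasome, rose from 26.7, 27.2 and 26.7 TPM in control to 34.2, 39.7 and 39.3 TPM after doxorubicin. The lowest doxorubicin value lay above the highest control value, and the log2 fold change was 0.47 ± 0.08 (limma adjusted p = 0.000788). It was 0.56 and 0.73 on the other 2 scalings.

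Of 9 FKBP genes, 3 (33.3%) were called higher and 2 (22.2%) lower on the TPM scale, beside 22.7% and 48.5% of all genes. After median scaling 7 (77.8%) were called higher and 2 (22.2%) lower, beside 45.2% and 30.3% of all genes. The median log2 fold change of the 9 genes was 0.16 on the TPM scale. FKBP2, a small isomerase of the ER, rose from 146, 145 and 158 TPM in control to 198, 196 and 188 TPM after doxorubicin, a log2 fold change of 0.37 ± 0.06 (limma adjusted p = 0.000399). FKBP10, a chaperone of procollagen in the ER known as FKBP65, rose from 345, 327 and 346 TPM to 411, 391 and 450.05 TPM, a log2 fold change of 0.29 ± 0.06 (limma adjusted p = 0.00194). It was not called after quantile normalization, and without doxorubicin replicate 3 it was at 0.24, under the fold change for a call.

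FKBP14, another procollagen isomerase of the ER, fell from 15.8, 16.6 and 16.3 TPM in control to 10.2, 7.94 and 10.0 TPM after doxorubicin. The log2 fold change was -0.74 ± 0.12 (limma adjusted p = 0.000374). FKBP2 relative to FKBP14 was 8.72 to 9.70 in control and 18.8 to 24.7 after doxorubicin, 2.27-fold higher and without overlap, although both genes encode isomerases of the same compartment. FKBP5, a glucocorticoid-induced co-chaperone of HSP90, had 2.95 to 3.21 TPM in control and 1.40 to 1.48 TPM after doxorubicin, and its log2 fold change was -0.72 ± 0.12, called lower.

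FKBP1B, which binds ryanodine receptors, had at most 11.02 TPM in control and at least 11.05 TPM after doxorubicin, with the groups nearly touching. Its log2 fold change was 0.34 ± 0.13 (limma adjusted p = 0.0309), and the call was lost when control replicate 1 or 2 or doxorubicin replicate 1 or 2 was left out (log2 fold change 0.27 to 0.33, adjusted p = 0.0586 to 0.123). FKBP1A, FKBP3, FKBP4 and FKBP8 had log2 fold changes between 0.09 and 0.22 and were not called on the TPM scale. After quantile normalization FKBP4 was called higher and FKBP1A was at -0.03. After median scaling FKBP1A, FKBP3, FKBP4 and FKBP8 were called higher.

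The symbol rule also takes in 3 genes that are in none of the families above. PSMC3IP, or HOP2, a factor of meiotic recombination named for an interaction with PSMC3, fell from 13.0, 13.3 and 10.6 TPM in control to 2.95, 2.78 and 4.79 TPM after doxorubicin. This is the lowest log2 fold change of the 56 genes, at -1.58 ± 0.17 (limma adjusted p = 3.67e-05). HSPBP1, an HSP70 nucleotide exchange factor, and PSME3IP1, a PSME3-binding protein of the nucleus, overlapped between the groups. HSPBP1 had 30.8 to 35.3 TPM in control and 28.7 to 34.4 TPM after doxorubicin, and PSME3IP1 had 50.2 to 53.4 and 49.4 to 56.4 TPM.

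Sorted by compartment, a grouping made after the values were seen, most ER genes were lower. Of 10 ER residents, 7 were called lower (HSPA5, HSP90B1, DNAJC3, DNAJC10, DNAJB14, DNAJC14 and FKBP14) on all 3 scalings, and FKBP2 and FKBP10 were called higher on the TPM scale. The share of all genes called lower was 48.5% on the TPM scale and 28.7% and 30.3% after quantile normalization and median scaling. Their median log2 fold change was -0.62, with -0.39 and -0.36 on the other 2 scalings. Their summed level was 1544, 1538 and 1555 TPM with DMSO alone and 1311, 1204 and 1371 TPM with doxorubicin, lower in all 3 and at 0.838 of the control mean.

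DNAJB9, or ERdj4, an ER partner of BiP and a target of the unfolded protein response, did not follow HSPA5. It had 12.2, 11.6 and 10.2 TPM in control and 13.1, 11.9 and 14.3 TPM after doxorubicin, with overlapping groups. It was not called on the TPM scale, at 0.20, and was called higher on the other 2 scalings, at 0.44 and 0.45. Relative to HSPA5 it was 1.77-fold higher after doxorubicin, at 0.0224 to 0.0268 in control and 0.0435 to 0.0450 after doxorubicin. FKBP10 relative to HSP90B1 was 1.93-fold higher, and BAG1 relative to HSPA5 2.16-fold higher. PSMB4 relative to HSPA5 was 1.03, 1.01 and 1.03 in control and 1.77, 2.10 and 1.54 after doxorubicin, so the core proteasome gene and the ER chaperone went from equal TPM to a ratio of 1.80 ± 0.28 (SD, n = 3).

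**Figure D4:**
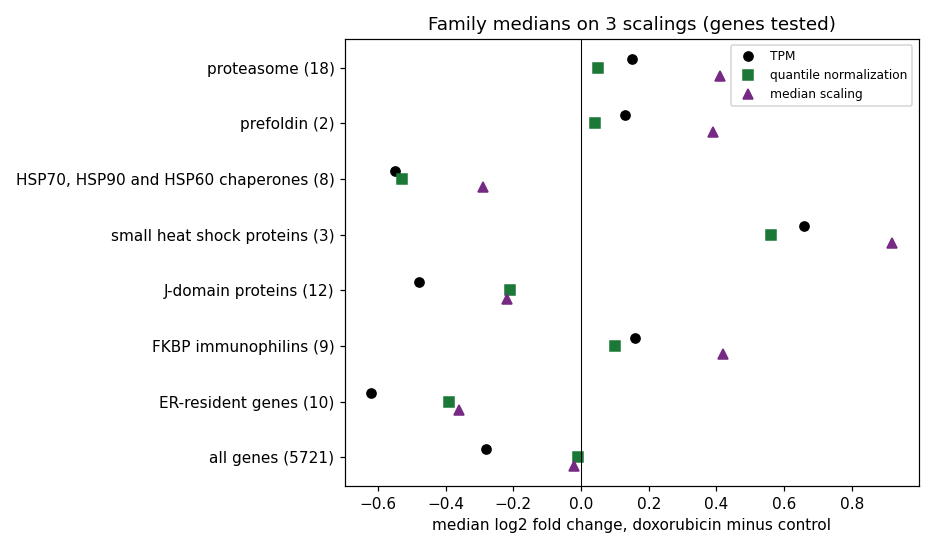
Median log2 fold change (doxorubicin minus control, horizontal axis) of each family on TPM (circles), quantile-normalized (squares) and median-scaled (triangles) values, with the number of genes tested in parentheses. On all 3 scalings the HSP70, HSP90 and HSP60 chaperones (with AHSA1), J-domain proteins and ER-resident genes lie below 0. The proteasome and FKBP genes lie above 0 on all 3, and the proteasome median runs from 0.05 to 0.41.

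Other genes of these pathways were read from a list of 78 that the symbol rule does not take in, of which 37 are listed. Of the 37, 6 were called higher and 18 lower, which are 16.2% and 48.6%, beside 22.7% and 48.5% of all genes. After quantile normalization 5 (13.5%) were called higher and 15 (40.5%) lower, beside 33.0% and 28.7% of all genes. After median scaling 17 (45.9%) were called higher and 14 (37.8%) lower, beside 45.2% and 30.3%. The median log2 fold change of the 37 genes was -0.18 on the TPM scale and 0.08 after median scaling. SIL1, the nucleotide exchange factor of BiP, rose by 0.59 (log2 fold change), clusterin (CLU), a secreted chaperone, rose by 0.59, and TOMM34, a co-chaperone of mitochondrial import, rose by 0.41. PDIA4, a disulfide isomerase of the ER, was at -0.86, and RAD23B, which shuttles ubiquitinated proteins to the proteasome, at -0.81, both called lower.

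Further ER partners, named after their values were seen, also fell, with calnexin (CANX) at -0.64, calreticulin (CALR) at -0.55, PDIA3 at -0.51 and HYOU1 at -0.41 (log2 fold change), though PDIA3 and HYOU1 were not called after median scaling. Of the transcription factors that act on these pathways, HSF1, the heat shock factor, was at 0.08 and not called on the TPM scale. HSF2 was at -0.61, NFE2L2, known for control of proteasome genes under oxidative stress, at -0.62, and ATF4 of the integrated stress response at -0.71, all called lower on the TPM scale, and HSF2 was not called after quantile normalization. DDIT3, or CHOP, was at 0.07 and EIF2AK3, the ER stress sensor PERK, at -0.18, and neither was called on the TPM scale. After median scaling HSF1 and DDIT3 were called higher.

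The direction of these genes moved with their level, as it did for all genes of the table. Among all genes with a mean of 5 to 20 TPM the median log2 fold change was -0.45, and among those of at least 100 TPM it was 0.18. The 11 genes described here in the lower range had a median of -0.63, and the 25 in the upper range a median of 0.11, where 20 of 25 and 76.5% of all genes had higher values. In that upper range, HSPA5, HSP90B1, HSP90AA1, HSPD1 and HSPB6 are thus the 5 of those 25 genes with lower values. These 5 were named after their values were seen.

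**Figure D5:**
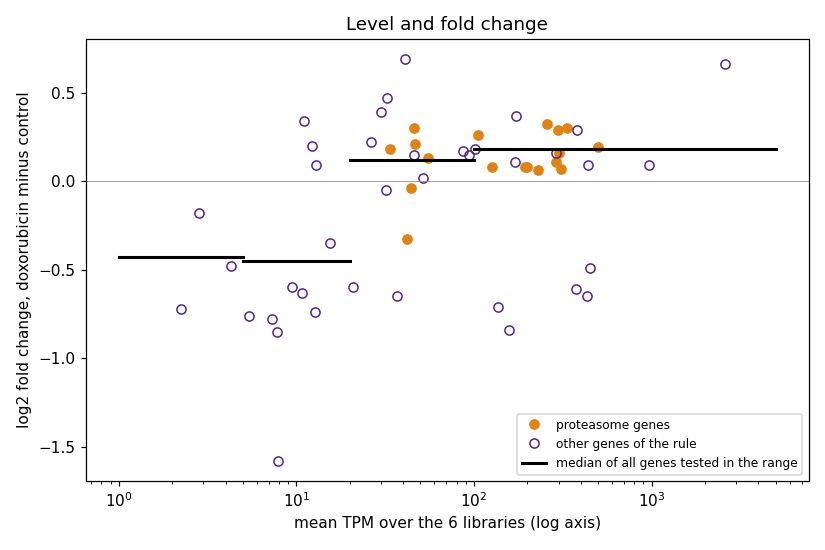
Log2 fold change (doxorubicin minus control, vertical axis) against the mean TPM over the 6 libraries (horizontal log axis) of the 56 genes tested, with proteasome genes in orange, the others as open circles, and black lines for the median of all genes in 4 ranges of level. Most proteasome genes lie near the black lines, PSMD11 lies below them, and 5 chaperone genes above 100 TPM lie well below them.

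Gene structure moved with the direction too. Across the 56 genes, which share the same 6 libraries, Spearman's rho of the log2 fold change was -0.42 with genomic span, -0.54 with transcript length and 0.53 with GC content. Across 5665 genes of the table the values were -0.44, -0.34 and 0.43. The genes called higher had a median transcript of 755 bases and those called lower 2510 bases, while proteasome genes had 932 bases. HSPB6 has a median transcript of 711 bases and fell, and HSPB1 has 718 bases and rose. This pair was named after its values were seen. The part of level, length and GC content in the results was not tested.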

How the data were processed

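RNA was extracted with Trizol and sequenced on an Illumina platform. The table the authors deposited holds 1 value for each gene in each library, taken as TPM (its header names no unit), beside group means, fold changes, p-values and adjusted p-values, which were not used. The submitters' processing notes name CASAVA, HISAT2, StringTie, RSEM, DESeq2 and edgeR, without roles or versions, and the mouse build GRCm38, while the table has human identifiers. TPM keeps no read depth, so depth is unknown and no counting interval is given. Strandedness is not given in the sources used here, and 38 of the 58 genes overlap a gene on the other strand and 19 one on the same strand.

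Values were fitted as log2(TPM + 1) with limma 3.58.1 (eBayes, trend and robust) in R 4.3.3, over the 5721 of 6499 genes whose mean reached 1 TPM, and adjusted by Benjamini-Hochberg. A fold change is on that scale and understates changes of low genes. With 3 against 3 libraries an exact two-sided permutation test cannot go below p = 0.1. Genes were listed by the study on these libraries, and members, lists and tests were chosen with earlier results of these data known. The rule for named genes took the catalytic subunits and main heat shock genes, the largest rise and fall of each family, and genes against most of their family. All other members were then accounted for. The value of 1 further pathway gene is not reported here. Positions, lengths and GC content came from GENCODE release 29, promoters from RefSeq. The script was tested on simulated data. Alternatives were another pseudocount (0.1), other filters, 2 other scalings, other thresholds, a replicate block and each library left out. Python 3.11.15, pandas 2.3.3, NumPy 2.4.6, SciPy 1.17.1 and matplotlib 3.10.9 were used.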

Additional observations from a re-analysis of the deposited data

How the results depend on the processing

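Scaling changed most. Median scaling called 35 of the 56 genes higher, and 2588 of all genes higher and 1735 lower, while quantile normalization called 1889 of all genes higher and 1643 lower. Dropping the minimum fold change gave 18 of the 56 called higher, and 1611 of all genes. Family medians after quantile normalization and median scaling were 0.05 and 0.41 for the proteasome, 0.04 and 0.39 for prefoldin, 0.56 and 0.92 for small heat shock proteins, -0.21 and -0.22 for J-domain proteins, 0.10 and 0.42 for FKBP genes and -0.39 and -0.36 for ER residents, and median scaling gave -0.29 for the HSP70, HSP90 and HSP60 chaperones. Signs turned after quantile normalization for PSMB4 (-0.01), FKBP1A (-0.03), PFDN5 (-0.03), PSME4 (0.00), PSMA6 (-0.02), PSMB7 (-0.03), HSPBP1 (0.05) and HSPA4L (0.16). After median scaling they turned for PSME4 (0.22), HSPBP1 (0.21) and HSPA4L (0.07). None of these genes was called on a scaling that turned its sign, but FKBP1A, PFDN5, PSMA6, PSMB4 and PSMB7 were called higher after median scaling. These scalings align the libraries on genes the study had already chosen, and which scale is nearer to the RNA content of the cells was not tested.

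Leaving out each library in turn gave 9 to 13 of the 56 genes called higher and 17 to 19 lower. Of all genes, 1189 to 1275 were called higher and 2520 to 2809 lower. The proteasome median was 0.11 to 0.20, and the small heat shock protein median 0.61 to 0.70. PSME3IP1 ran from -0.04 to 0.06 and HSPBP1 from -0.11 to 0.02. Of 29 called genes, 24 were called in all 6 of these fits. The exceptions were FKBP1B, FKBP10, PSME2 and PSMG4, given above, and DNAJC13, lost without control replicate 2 or 3 or doxorubicin replicate 1 or 2. The filter on low values (none, or a mean of at least 5 TPM) and the pseudocount of 0.1 changed no call among named genes that could still be tested.

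With the replicate block, 10 genes were called higher and 18 lower, and 28 of the 29 called genes were still called, without FKBP1B. Deviations of libraries with the same number correlated at -0.063, -0.193 and -0.230, and those with other numbers at -0.005 to 0.19. Deviations from a mean of 3 libraries depend on each other, so these values cannot decide whether the numbers pair the libraries. Of the genes outside the table nothing can be said, and depth limits cannot be given for TPM.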
